A study of Mus musculus with 4 samples.

Results

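Complement is a set of blood and tissue proteins that liver cells make in bulk and that fibroblasts also make, and 9 of its genes were followed here by symbol in RNA of mouse embryonic fibroblasts (MEFs): C1ra, C1s, Masp1, C4b, Cfb, C3, Serping1, Cd55 and Cd59a. Of these 9, 8 were among the 23537 genes of the count table, and Cfb is not analysed here. The RNA came from primary C57BL/6 MEFs, connective tissue cells grown from embryos at day 12.5 post coitum, in 2 MBD4 KO (Mbd4-/-) and 2 WT (Mbd4+/+) libraries made from subconfluent cells. MBD4 is a DNA glycosylase that binds methylated CpG and removes the base left when cytosine or 5-methylcytosine is deaminated, and the comparison asks which complement transcripts differ in its absence. The KO cells came from Mbd4-/- mice, and nothing in the labels tells whether the samples of a genotype came from separate embryos or cultures, so a p-value here speaks only of the scatter among these 4 samples, and that scatter may be technical.

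Complement can be started along several pathways. In the classical pathway the proteases C1r and C1s, bound to C1q, cut C4 and C2. In the lectin pathway MASP proteases do so, bound to mannose-binding lectin, ficolins or collectins. In the alternative pathway factor B is deposited with C3 on a surface. All of them meet at C3, whose cleavage marks a surface for uptake and leads to the membrane attack complex. Host cells are shielded by inhibitors, among them the C1 inhibitor (Serping1), which blocks C1r, C1s and the MASPs, the decay accelerating factor CD55, which takes C3 convertases apart, and CD59, which stops the last step of pore formation. Fibroblasts are known to make C1r, C1s and C3, and to raise several of these genes under interferon and inflammatory cytokines.

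The libraries held 45223089 and 39108275 counts (KO) and 47567835 and 42796997 counts (WT). Log2(CPM + 1) correlated across genes, which are not independent replicates, at a Pearson r of 0.999 between KO and 0.998 between WT libraries and at 0.946 to 0.949 between genotypes. CPM are TMM-scaled counts relative to library depth. Mbd4 itself had 373 and 302 counts in KO and 663 and 630 in WT, so transcripts from its locus fell but were still counted, and the exons that the allele lacks are not given in the sources used. Ift122, beside Mbd4, had 7 and 3 counts in KO against 1002 and 944 in WT, so the KO libraries also lack most RNA of this intraflagellar transport gene. The label was checked against 12 fibroblast markers, of which 8 fell in KO, 0 rose and 4 did not pass the test. In the same test, 32.5% of all genes tested fell and 34.3% rose. Vim kept 111132 to 130663 counts in KO (166160 to 184897 in WT), but Dcn had 5 and 7 counts in KO against 1349 and 1123 in WT, and Lum was nearly absent in KO as well, at 0 and 1 counts against 142 and 131.

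Of the 8 genes, 7 passed edgeR's filter on low counts and were tested (edgeR's quasi-likelihood test, Benjamini-Hochberg adjustment over 15538 genes, threshold 0.05). C1s and C1ra rose in KO, C3 and Cd59a fell, and Masp1, C4b and Serping1 did not pass the test. Cd55 was under the filter. In bulk RNA of this kind, fewer cells that make a transcript and less RNA per cell cannot be told apart, for a fall as for a rise. In the same comparison 66.8% of all genes tested passed, 34.3% as higher and 32.5% as lower in KO, so 4 calls among 7 genes is near the share of the whole table. All 4 also passed stricter limits (adjusted p under 0.01, log2 fold change beyond 2 in size), which 8.94% of all genes tested passed. The median log2 fold change of the 7 genes was 0.08, against 0.02 over all genes tested.

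**Figure D1:**
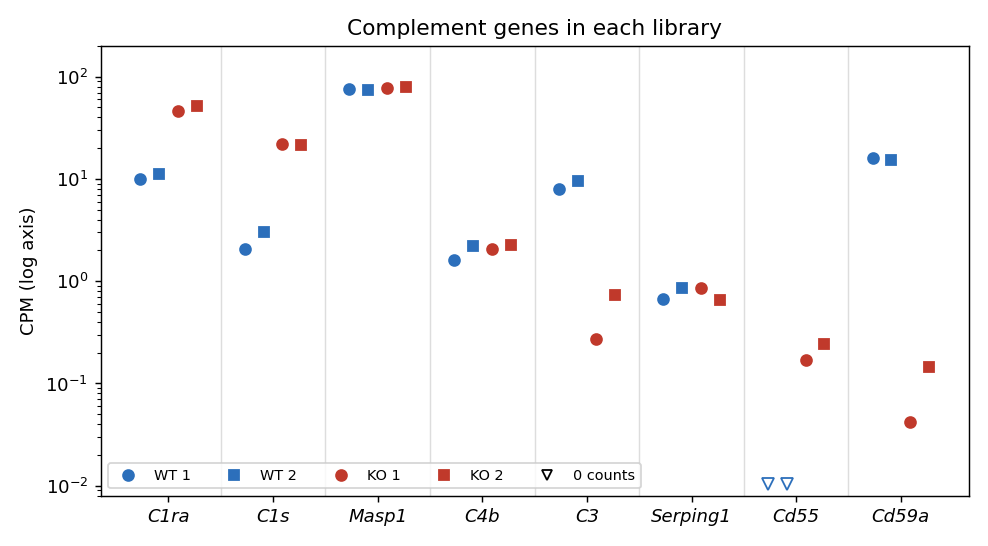
CPM of the 8 complement genes in each WT (blue) and KO (red) library on a log axis, with an open triangle at the bottom for a library with 0 counts. C1ra and C1s sit higher in both KO libraries, C3 and Cd59a sit lower, the points of C4b and Serping1 overlap, and Cd55 has counts in the KO libraries alone.

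Per kilobase of exon, Masp1 stood first in WT at a mean of 12.4 CPM per kb, followed by Cd59a at 8.61, C1ra at 3.55, C3 at 1.70 and C1s at 0.732. C4b at 0.336 and Serping1 at 0.328 came next, and their WT libraries overlapped (0.286 and 0.386 against 0.288 and 0.367). Cd55 was at 0 counts. In KO the order was C1ra at 16.3 CPM per kb, Masp1 at 13.1, C1s at 6.20, C4b at 0.381, Serping1 at 0.326, C3 at 0.0976, Cd59a at 0.0518 and Cd55 at 0.0423. In KO the libraries of C4b and Serping1 overlapped again, as did those of C3 and Cd59a and those of Cd59a and Cd55, so no order can be read within these pairs. In both genotypes the transcripts of a lectin pathway protease were among the most abundant of the 8. Those of its inhibitor Serping1 had means of 0.326 CPM per kb in KO and 0.328 in WT, with libraries from 0.282 to 0.371. In WT the membrane inhibitor Cd59a and C3 stood in between, and in KO both were among the lowest.

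The sequences before the starts of the 4 genes that moved are shown because CpG sites are where MBD4 acts. Each runs 5′ to 3′ from 250 bases before to 50 bases after the RefSeq start (GRCm38.p6), with CpG in capitals. C1ra lies at chr6:124512371-124512670 (+ strand), C1s, named C1s1 in RefSeq, at chr6:124542310-124542609 (- strand), C3 at chr17:57228087-57228386 (- strand) and Cd59a at chr2:104095551-104095850 (+ strand).
C1ra: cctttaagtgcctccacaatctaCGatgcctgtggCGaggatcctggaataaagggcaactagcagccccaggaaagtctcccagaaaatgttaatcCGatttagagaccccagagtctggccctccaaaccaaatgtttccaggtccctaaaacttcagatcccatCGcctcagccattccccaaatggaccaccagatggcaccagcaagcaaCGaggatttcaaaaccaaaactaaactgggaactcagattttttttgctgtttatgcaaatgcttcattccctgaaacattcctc
C1s: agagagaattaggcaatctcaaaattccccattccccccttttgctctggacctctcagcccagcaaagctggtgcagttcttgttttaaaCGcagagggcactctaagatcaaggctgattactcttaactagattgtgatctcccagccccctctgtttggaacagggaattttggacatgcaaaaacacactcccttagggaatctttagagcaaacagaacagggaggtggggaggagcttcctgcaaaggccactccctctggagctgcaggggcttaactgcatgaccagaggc
C3: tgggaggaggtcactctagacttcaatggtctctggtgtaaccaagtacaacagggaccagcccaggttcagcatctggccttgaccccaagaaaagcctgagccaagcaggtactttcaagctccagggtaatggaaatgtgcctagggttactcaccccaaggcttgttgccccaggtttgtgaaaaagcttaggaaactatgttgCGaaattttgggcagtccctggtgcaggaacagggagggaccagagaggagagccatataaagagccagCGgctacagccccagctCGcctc
Cd59a: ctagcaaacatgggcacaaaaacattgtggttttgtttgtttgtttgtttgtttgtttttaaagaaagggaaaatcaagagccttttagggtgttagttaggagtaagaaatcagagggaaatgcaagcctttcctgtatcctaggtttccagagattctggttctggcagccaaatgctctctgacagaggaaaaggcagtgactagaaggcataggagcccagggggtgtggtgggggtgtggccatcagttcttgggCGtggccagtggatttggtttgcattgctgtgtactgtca

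C1ra has 5 CpG in this window, C3 has 3, and C1s and Cd59a have 1 each, where the median of all 32851 windows of this length is 7. As many CpG as in C1ra or more are found in 62% of windows, as in C3 or more in 76.7%, and as in C1s and Cd59a or more in 94.6%. The rising and the falling genes are thus alike in having fewer CpG than the median window. Cd55, at chr1:130462695-130462994 (- strand), has 12, which 39.6% of windows reach or exceed. Of 9 genes, 5 had a window in this table, and those of C4b, Cfb, Serping1 and Masp1 were not analysed here.

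The windows were also searched on both strands for letters of motifs that cytokine signalling is known to use. The STAT motif GAS (TTCNNNGAA), held by 8.3% of all windows, occurs once in C1ra. The core of the interferon motif ISRE (GAAANNGAA), held by 8.56%, occurs once in Cd59a. The C/EBP motif (TTGCNNAA), held by 10.8%, occurs once each in C1ra, C1s and C3. The kappaB motif, held by 8.46%, occurs in none of the 5 windows. A match is a description of letters and not a bound site.

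C1ra encodes C1r, the protease that activates itself in the C1 complex and then cuts C1s. It had 2195 and 2128 counts in KO and 447 and 463 in WT. These are 48.9 ± 3.85 CPM in KO and 10.6 ± 0.935 CPM in WT (mean ± SD, n = 2 each). Both KO libraries stood far above both WT libraries. The log2 fold change was 2.20 (SE 0.09, 95% interval 2.0 to 2.40), or 4.6-fold higher in KO, with an adjusted p of 2.01e-10.

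C1s encodes the protease that C1r cuts and that in turn cuts C4 and C2. It had 1038 and 883 counts in KO and 92 and 125 in WT, or 21.6 ± 0.295 against 2.55 ± 0.705 CPM (SD, n = 2 each). The groups were again far apart, and the WT libraries differed more between themselves than the KO libraries did. The log2 fold change was 3.09 (SE 0.15, 95% interval 2.76 to 3.41, adjusted p = 8.94e-10), an 8.51-fold rise. The intervals of C1ra and C1s did not overlap, although the difference between both changes was not tested.

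C1ra (ENSMUSG00000055172) and C1s (ENSMUSG00000038521) are neighbours on chromosome 6, at chr6:124462423-124473458 (+ strand) and chr6:124480363-124586998 (- strand) of mm9, 6.9 kb apart. The annotated span of C1s runs across the near copies C1rb and Gm5077. C1ra shares 29 exon bases with C1rb, which is 0.966% of its exons. C1s shares 205 (5.87%) with Gm5077 on the same strand and 576 (16.5%) with the non-coding Gm16567 on the opposite strand. Only 55.2% of the 50-base windows of C1ra and 78.1% of those of C1s occur once on their chromosome, so reads could be split with the copies or dropped, and the level of both genes is uncertain to that extent. The copies themselves were almost unread, with 9 and 3 counts of C1rb in KO and 1 and 0 in WT, and with 2 and 2 counts of Gm5077 in KO and 1 and 0 in WT.

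The same stretch holds C1rl, a protease related to C1r, with 628 and 593 counts in KO and 101 and 104 in WT. It rose as well, by a log2 fold change of 2.53 (SE 0.14, adjusted p = 2.91e-09). Further out the picture was mixed. Clstn3 rose by 1.25 (log2, adjusted p = 0.0139) and Lpcat3 by 0.28 (adjusted p = 0.00515), while Pex5 at -0.06 (adjusted p = 0.478) and Cd163 at 0.02 (adjusted p = 0.981) did not pass the test. Among the 5 genes on each side of C1ra, 6 were tested, 4 rose, C1s among them, and 0 fell. Among the 5 on each side of C1s, 7 were tested, 4 rose, C1ra among them, and 2 fell. Those that fell were Emg1 at -0.70 (adjusted p = 3.87e-07) and Phb2 at -0.45 (adjusted p = 1.51e-05). Of all genes tested, 34.3% rose and 32.5% fell. C1ra and Mbd4 are both on chromosome 6, 8.66 Mb apart.

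**Figure D2:**
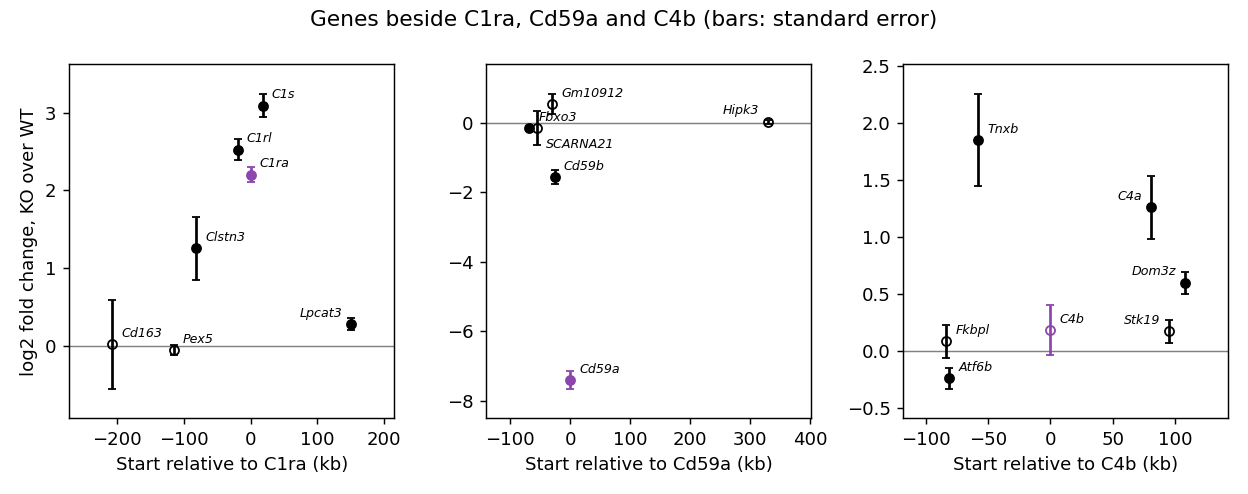
Log2 fold change (KO over WT) with its standard error against the start relative to C1ra, Cd59a and C4b (purple), for those of the 5 genes to either side that were tested, filled where the test was passed. C1rl, C1ra and C1s stand above the genes around them, Cd59a at -7.39 lies far below its neighbours, and Tnxb and C4a stand above C4b.

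Masp1 encodes the protease MASP-1 of the lectin pathway and, by splicing, MASP-3 and MAp44, which a count per gene does not separate. It lies at chr16:23449490-23520676 (- strand, mm9) and had 3699 and 3268 counts in KO and 3362 and 3018 in WT. Its 78.6 ± 1.03 CPM in KO and 74.4 ± 0.986 CPM in WT (SD, n = 2 each) did not overlap, but the log2 fold change of 0.08 (SE 0.06) missed the threshold with an adjusted p of 0.275. The 95% interval runs from -0.05 to 0.21. Scaled by library totals, which moved the median of all genes to 0.17, Masp1 passed at 0.23 (adjusted p = 0.00461). Masp1 is therefore the member with the narrowest interval around no change, and its call rests on the scaling.

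C4b encodes C4, the substrate of C1s and of the MASPs that forms the C3 convertase with C2. It had 98 and 94 counts in KO and 73 and 90 in WT, or 2.17 ± 0.155 against 1.91 ± 0.401 CPM (SD, n = 2 each). The libraries overlapped, and the log2 fold change of 0.18 (SE 0.22, 95% interval -0.28 to 0.65, adjusted p = 0.472) did not pass the test. A rise of the size seen for C1ra lies outside this interval. Without the first WT library the value was -0.02.

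C4b (chr17:34865325-34880827, - strand, mm9) has a near copy, C4a, 65.2 kb away, and 67% of its 50-base windows occur once on chromosome 17. C4a had 71 and 56 counts in KO and 25 and 26 in WT, and rose by a log2 fold change of 1.26 (SE 0.28, adjusted p = 0.00115). How reads that match both copies were divided is unknown from the sources used, so the values of both are uncertain. Tnxb on the other side of C4b rose by 1.85 (adjusted p = 0.00111). C2, further along the same region, had 13 and 15 counts in KO and 15 and 7 in WT, with a log2 fold change of 0.30 (adjusted p = 0.602).

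C3 encodes the component on which all pathways converge. It had 13 and 30 counts in KO and 356 and 391 in WT, or 0.501 ± 0.321 against 8.75 ± 1.13 CPM (SD, n = 2 each). Both KO libraries were far below both WT libraries, and the KO libraries differed between themselves at 0.273 and 0.728 CPM. The log2 fold change was -4.16 (SE 0.27, 95% interval -4.75 to -3.56, adjusted p = 1.67e-08), a 17.8-fold fall. It was -3.58 without the first KO library and -4.98 without the second, so its size depends on which low KO value is used, and both left it past the test.

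C3 lies at chr17:57343397-57367559 (- strand, mm9), and 100% of its 50-base windows occur once on the chromosome. Of the genes around it, 6 were tested, 2 rose and 1 fell, where 34.3% of all genes tested rose and 32.5% fell. The nearest tested on each side, chosen after their values were seen, were Tnfsf9 at -0.12 (adjusted p = 0.633) and Gpr108 at 0.43 (adjusted p = 0.000174). The 1 neighbour that fell, Trip10, fell by 0.35 (adjusted p = 0.000593), far less than C3. The gene whose pattern over the 4 libraries was nearest to that of C3 was Sh2d4a, at a Euclidean distance of 0.0647 between centred log2 CPM.

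Serping1 encodes the C1 inhibitor. It had 41 and 27 counts in KO and 30 and 35 in WT, or 0.759 ± 0.147 against 0.762 ± 0.131 CPM (SD, n = 2 each). The libraries overlapped, and the log2 fold change was 0.01 (SE 0.31, 95% interval -0.67 to 0.68, adjusted p = 0.987). No difference was detectable for the inhibitor of C1r and C1s, but with 27 to 41 counts a library the interval still holds a fall of 0.67 and a rise of 0.68 on the log2 scale. It lies at chr2:84605544-84615601 (- strand, mm9).

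Cd59a encodes the membrane inhibitor of the attack complex in mice. It had 2 and 6 counts in KO and 715 and 624 in WT, or 0.0938 ± 0.0732 against 15.6 ± 0.518 CPM (SD, n = 2 each). The transcript was thus nearly lost from both KO libraries, and in WT it was well above C3 and C1ra per kilobase. The log2 fold change was -7.39 (SE 0.26, 95% interval -7.94 to -6.84, adjusted p = 3.27e-11). The summed counts scaled to depth were 173-fold lower in KO, with an exact 95% interval of 87.7 to 402 that covers counting error only. Without the first KO library the log2 value was -6.71 and without the second it was -8.44.

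Cd59a (chr2:103935958-103955511, + strand, mm9) lies 4.61 kb from its paralog Cd59b, which codes for a similar inhibitor known from testis, and 73.7% of its 50-base windows occur once on chromosome 2. Cd59b had 52 and 42 counts in KO and 136 and 133 in WT and also fell (log2 fold change -1.57, SE 0.21, adjusted p = 1.59e-05). Reads shared by the paralogs could be counted for either or dropped, so the values of both are uncertain. Of the other genes tested around Cd59a, Fbxo3 fell by 0.16 (log2, adjusted p = 0.0317), and Gm10912 at 0.53 (adjusted p = 0.12), SCARNA21 at -0.16 (adjusted p = 0.786) and Hipk3 at 0.03 (adjusted p = 0.689) did not pass. The pattern nearest to that of Cd59a was that of Lum, a matrix proteoglycan of fibroblasts, at a distance of 0.137, with 0 and 1 counts in KO and 142 and 131 in WT.

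Cd55 encodes the decay accelerating factor. It had 8 and 10 counts in KO and 0 and 0 in WT, that is 0.206 ± 0.0525 CPM in KO (SD, n = 2). Against a floor of 3 counts over the WT group, with the KO counts taken as they are, it was 5.8-fold higher in KO. The exact 95% interval of the ratio, which covers counting error only, has a lower limit of 4.25-fold. Cd55 did not reach the filter on low counts. Without the filter its adjusted p was 0.000981 in edgeR and 0.0149 in DESeq2. Cd55 lies at chr1:132335604-132359321 (- strand, mm9) and shares 102 exon bases (2.1%) with the non-coding Gm16083 on the opposite strand. Per kilobase its KO libraries (0.0347 and 0.05 CPM per kb) lay below those of every other member but Cd59a, whose 0.0232 and 0.0804 CPM per kb they overlapped.

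Around Cd55, 6 of the 10 nearest genes were tested, and 6 rose, where 34.3% of all genes tested rose. With 6 genes, no regional effect can be read from this count. The 6 include C4bp, the C4b-binding protein that inhibits the classical convertase, with 673 and 568 counts in KO and 95 and 102 in WT. It rose by a log2 fold change of 2.60 (SE 0.14, adjusted p = 2.18e-09). C4bp starts 195.7 kb from the start of Cd55 on chromosome 1. Cd46 and Cr1l, which belong to the same family of regulators and are named after their values were seen, moved in opposite directions. Both lie far from Cd55 on chromosome 1, at chr1:196867479-196918442 and chr1:196929983-196957764 (- strand, mm9). Cd46 had 189 and 166 counts in KO and 54 and 72 in WT (log2 fold change 1.44, adjusted p = 3.81e-05), and Cr1l had 1924 and 1533 in KO and 2330 and 2081 in WT (-0.40, adjusted p = 0.000261).

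**Figure D3:**
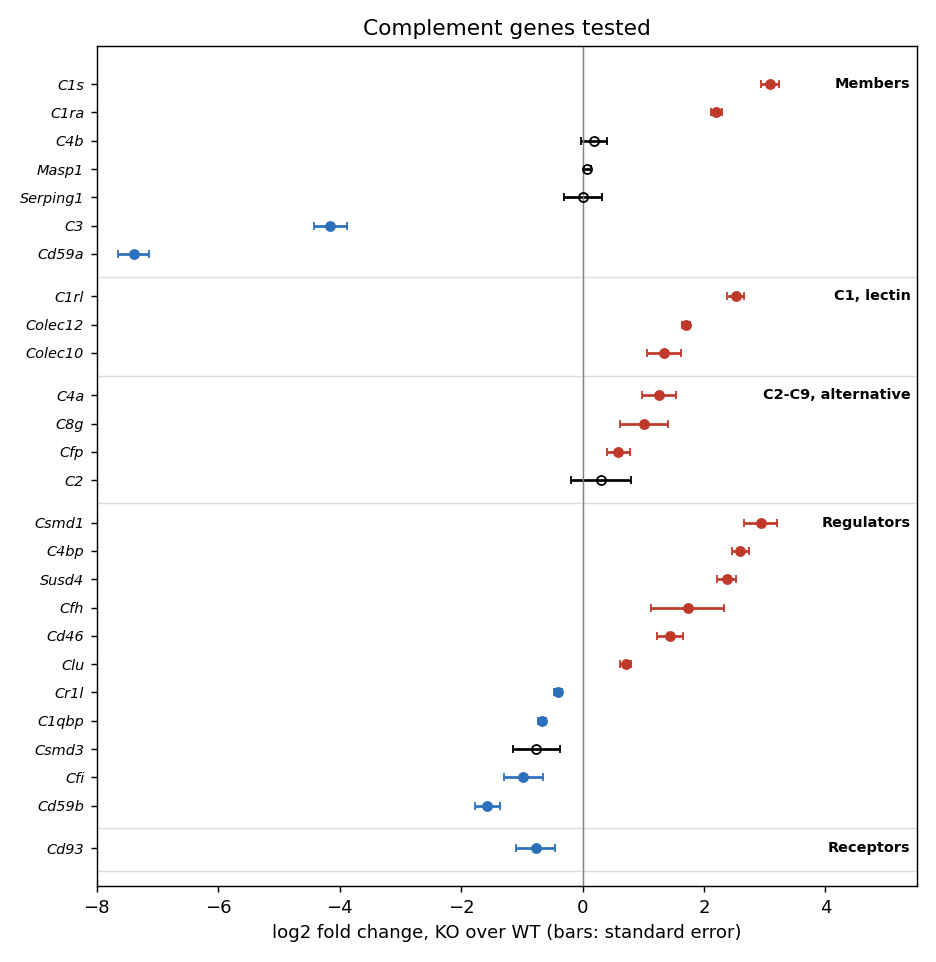
Log2 fold change (KO over WT) with its standard error for the 7 members and 19 other complement genes tested, by role, red where higher, blue where lower and open where the test was not passed. C1s at 3.09 is highest, C1ra at 2.20 lies among the genes that rose, and C3 and Cd59a lie below every other complement gene tested.

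The rest of the pathway was read from 54 further complement symbols, of which 40 were in the table and 19 were tested. Of these, 12 rose, 5 fell and 2 did not pass, with a median log2 fold change of 1.02 against 0.02 over all genes. Of all genes tested, 34.3% rose and 32.5% fell. Among the 3 tested genes of C1 and lectin recognition all 3 rose. The most abundant was Colec12, a scavenger receptor with a collectin domain, at 22340 and 18397 counts in KO and 6196 and 5848 in WT (log2 fold change 1.70, adjusted p = 4.3e-11). Colec10, a soluble collectin, rose by 1.34 (adjusted p = 0.000856). C1q, whose 3 chains carry C1r and C1s, is not analysed here.

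With 34.3% of all genes tested higher in KO, 3 of the 4 genes tested among C2 to C9 and the alternative pathway rose. These were C4a (above), C8g by 1.02 (adjusted p = 0.0354), which codes for a chain of C8, and Cfp by 0.59 (adjusted p = 0.0141), which codes for properdin. All 3 were low, with at most 158 counts in a library, and C8g and Cfp lost their calls with DESeq2. C8g also lost its call without the first KO (0.86, adjusted p = 0.233), the second KO (1.15, adjusted p = 0.097) or the first WT library (0.55, adjusted p = 0.26), and stood at 1.63 without the second WT library. Cfp lost its call without the second KO library (0.43, adjusted p = 0.176). None of the 4 moved in the direction of C3. Hc, the gene of C5, had 1 and 1 counts in KO and 3 and 2 in WT, and C7 had 0 and 3 counts in KO and 0 and 0 in WT, so the later components were hardly read in either genotype.

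Of 11 regulators tested, 6 rose, 4 fell and 1 did not pass, where 34.3% of all genes tested rose and 32.5% fell. Csmd1, a membrane protein with complement control domains, rose by 2.94 (adjusted p = 4.94e-07), from 18 and 12 counts in WT to 125 and 114 in KO. Susd4, another such protein, rose by 2.38 (adjusted p = 1.8e-08), from 80 and 80 counts to 435 and 424. Beside Cd59b and Cr1l, the regulators that fell were Cfi by 0.98 (adjusted p = 0.0164), the gene of the protease that inactivates C3b, and C1qbp by 0.67 (adjusted p = 1.98e-06), a mainly mitochondrial protein that binds C1q. The call of Cfi was lost with DESeq2 and without the first KO (adjusted p = 0.0961), the second KO (adjusted p = 0.0971) or the second WT library (adjusted p = 0.13). Calls among the regulators thus went both ways. The 1 receptor tested, Cd93, fell by 0.77 with an adjusted p of 0.0493 and lost its call when scaled by library totals or upper quartile. It also lost it without the first KO (-1.12, adjusted p = 0.0628), the second KO (-0.51, adjusted p = 0.326) or the second WT library (-0.70, adjusted p = 0.107).

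Genes known to set the level of complement in fibroblasts were followed as a list of 33 cytokine receptors, signalling proteins and transcription factors. Of these 28 were tested, 14 rose, 8 fell and 6 did not pass, with a median log2 fold change of 0.39. Over all genes tested, 34.3% rose and 32.5% fell, and the median was 0.02. Cebpa, a transcription factor of the C/EBP family, had 1451 and 1482 counts in KO and 228 and 200 in WT (2.73, adjusted p = 1.22e-10). The family did not move together: Cebpb fell (-0.64, adjusted p = 5.39e-06) and Cebpd did not pass the test (0.03, adjusted p = 0.828). Stat2, which carries interferon signals, rose by 1.15 (adjusted p = 4.55e-07), and Socs3, a feedback inhibitor of STAT signalling, by 1.46 (adjusted p = 1.07e-09). Within the list the largest falls were those of Nfkbiz, a partner of NF-kappaB, by 1.71 (adjusted p = 2.42e-10), Tnfrsf1b, a TNF receptor, by 1.03 (adjusted p = 2.56e-07), Ifngr2, a chain of the interferon gamma receptor, by 0.87 (adjusted p = 2.11e-06) and Nfkbia, an inhibitor and target of NF-kappaB, by 0.84 (adjusted p = 1.81e-07). The part of these genes in the levels of C1ra, C1s and C3 was not tested.

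**Figure D4:**
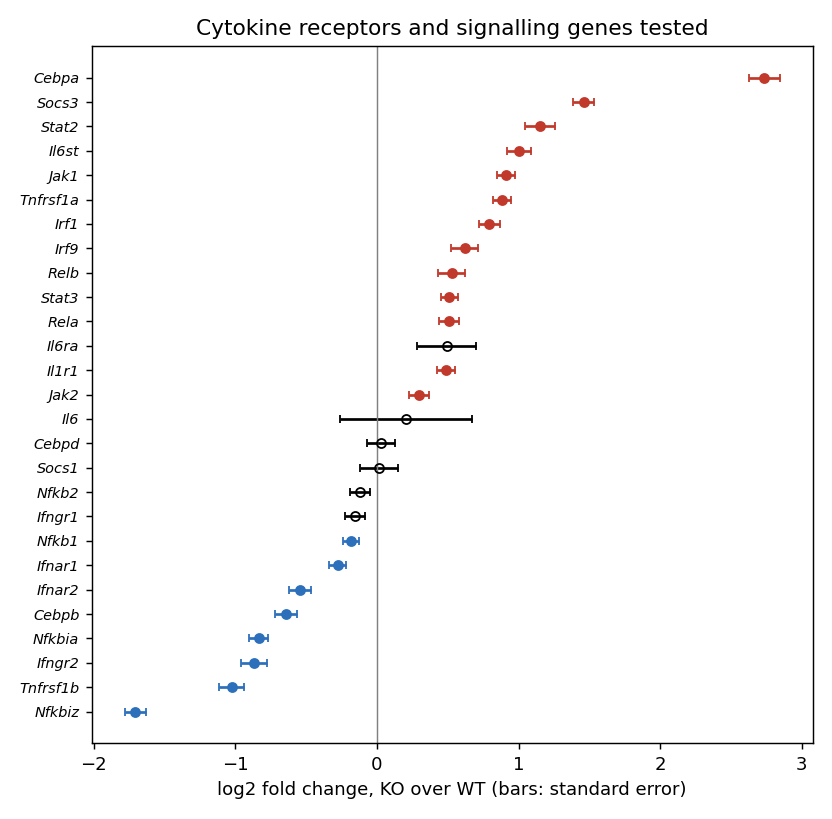
Log2 fold change (KO over WT) with its standard error for tested genes of cytokine receptors, signalling proteins and transcription factors (1 of the 28 is not shown), red where higher, blue where lower and open where the test was not passed. Cebpa is highest at 2.73 and Nfkbiz lowest at -1.71.

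Inflammation and acute phase genes, many of which are known to move with C3, were mixed in the same libraries. Of 11 tested, 4 rose, 6 fell and 1 did not pass, with a median of -0.44. Over all genes tested, 34.3% rose and 32.5% fell, and the median was 0.02. Steap4 rose by 5.68 (adjusted p = 8.76e-14), Lbp by 1.75 (adjusted p = 4.73e-07) and Vcam1 by 1.33 (adjusted p = 9.68e-08). Hp fell by 2.87 (adjusted p = 0.000134), Tnfaip3 by 2.07 (adjusted p = 6.63e-10) and Lcn2 by 1.86 (adjusted p = 1.75e-05). Among the genes just named, Hp, Tnfaip3 and Lcn2 thus moved in the direction of C3, and Steap4, Lbp and Vcam1 did not.

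Other cells that make complement were read through their markers, in a comparison where 34.3% of all genes tested rose and 32.5% fell. Of 12 macrophage markers 6 were tested, 2 rose and 2 fell, with a summed level of 8.69 CPM in both KO libraries and 6.64 to 7.57 in WT. The defining marker Emr1 was at or near 0 throughout (1 and 0 counts in KO, 0 and 0 in WT), while Ptprc had 0 and 2 counts in KO and 40 and 21 in WT and moved in the direction of C3 and Cd59a. Cd14 fell as well, by 1.17 (log2, adjusted p = 0.000849). Csf1r went the other way, with 196 and 177 counts in KO and 61 and 47 in WT (1.74, adjusted p = 3.27e-06). So did Fcer1g (1.07, adjusted p = 0.016). Lyz2 had 6 and 7 counts in KO and 0 and 0 in WT, and Cd68 (-0.08, adjusted p = 0.778) did not differ past the threshold. Of 8 liver markers 1 was tested, Afp, which had 1 and 0 counts in KO and 25 and 24 in WT, and the summed level was 0.0485 to 0.231 CPM in KO and 0.635 to 0.67 in WT. Apoa1 had 1 to 3 counts in every library. The part of Ptprc- or Afp-expressing cells in the falls was not tested.

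Of 8 endothelial markers 4 were tested and 0 passed, at 2.84 to 3.03 CPM in KO and 2.99 to 3.59 in WT, and Cdh5 was at 0 in both KO libraries. Of 7 epithelial markers 2 were tested and 1, Cdh1, rose by 3.64 (adjusted p = 1.18e-07), with a summed level of 3.06 to 3.43 CPM in KO and 0.938 to 1.37 in WT, while Krt18 and Cldn4 were at 0 counts in KO. Cartilage markers fell with C3 and Cd59a in 5 of 6 tested, from 596 to 629 CPM in WT to 131 to 149 in KO, and Col9a1 was at 0 counts in KO. Fibroblast markers, all 12 tested, fell in 8 and rose in 0, from 21300 to 23600 CPM in WT to 12800 to 13900 in KO. Muscle markers fell in 3 and rose in 1 of 5 tested, from 5380 to 6150 CPM to 4010 in both KO libraries. Beside these marker counts, 34.3% of all genes tested rose and 32.5% fell in KO. Of the sex-linked genes Xist rose by 1.22 (log2, adjusted p = 3.9e-08), and the Y-linked Uty, at 33 and 30 counts in KO and 26 and 17 in WT, did not pass the test (adjusted p = 0.209). Eif2s3y, also Y-linked, was near 0 throughout, at 2 and 2 counts in KO and 1 and 2 in WT, and was not tested. The part of these shifts in the changes of the complement genes was not tested.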

How the data were processed

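Ribosomal RNA was removed and stranded total RNA libraries were sequenced in 2 KO and 2 WT MEF samples. The authors called reads with CASAVA 1.8.2, aligned them to mm9 with TopHat2 and Bowtie and deposited raw counts per Ensembl gene from HTSeq 0.5.4p3 (the paper's methods and the submitters' processing notes). The sources used here do not give whether counting used the strand. The table's 5 columns of normalized counts and 3 columns of the authors' comparison were not used. Genes were placed with the mm9 annotation GENCODE M1, which holds 23393 of 23537 identifiers, and its exons gave the lengths.

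Counts were filtered with filterByExpr, which left 15538 genes and removed 7999, scaled by TMM and tested with edgeR 4.0.16 (quasi-likelihood test, genotype as the only term, Benjamini-Hochberg adjustment) in R 4.3.3, and the script was tested on simulated data. SE is the size of the log2 fold change divided by the root of F. With 2 samples a group an exact permutation test cannot go below p = 0.333, so none was used. Replicates differed by more than sampling noise (chi-square per gene 6.08 in KO and 12.7 in WT). Floors (3 counts over a group) and 95% intervals of counts cover counting error only. Promoter windows are from RefSeq (GRCm38.p6), and their coordinates are not those of mm9.

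The members and gene lists were chosen with earlier results of these data known. Named are all members, up to 4 called genes per direction (3 for inflammation) and the most abundant gene of a list, the 2 most abundant markers, paralogs and neighbours of members, and the gene nearest in pattern, and other genes were chosen after their values were seen. One gene that this rule would name is not reported here. Alternatives were library totals, RLE and upper quartile scaling, no filter, at least 10 counts in every library, DESeq2 1.42.0, limma-voom (limma 3.58.1), a replicate block, and each library left out in turn.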

Additional observations from a re-analysis of the deposited data

How the results depend on the processing

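C1ra, C1s, C3 and Cd59a kept their direction and their calls under every alternative in which they were tested. With at least 10 counts in every library 1 member fell in place of 2, also at the strict limits, because Cd59a has 2 and 6 counts in KO and was not tested. Of the other complement genes 3 fell with DESeq2 in place of 5, since Cfi and Cd93 lost their calls. Serping1 turned to -0.015 with RLE scaling, -0.014 without a filter and -0.027 with DESeq2, and Cd68 to 0.074 with library totals, none past the test. Leaving out 1 library gave members higher 2 to 3 and lower 2 to 2, at the strict limits 2 to 3 and 2 to 2, other complement genes higher 9 to 11 and lower 3 to 5, and genes of the context lists higher 21 to 24 and lower 31 to 37. The lone sample is then assumed to vary like the other group. Values that turned then, none past the test, ranged from -0.21 to 0.18 for Serping1, -0.024 to 0.37 for C4b, -0.12 to 0.87 for C2, -0.23 to 0.058 for Cd68 and -0.58 to 0.094 for Epcam. The replicate numbers share only a name: deviations from the group means correlated at -0.0548 between samples numbered 1. With the replicate block 2 members rose and 2 fell, 12 other complement genes rose and 4 fell (Cd93 at -0.78, adjusted p = 0.0556), and 23 genes of the context lists rose and 33 fell. Depth limits Serping1, C4b and Cd55, which had under 100 counts in every library.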
